A study of Mus musculus with 16 samples.

Results

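Within the Control group, the colons of 3 mice whose diarrhea score at day 28 was 1 or more were compared with those of 3 mice whose score was 0.5. The scores come from the sample labels: Control 4 and 6 scored 1, Control 3 scored 1.5, and Control 1, 2 and 5 scored 0.5. These 6 mice are part of a series of 16, in which no Sham or 5-ASA mouse scored above 0.5. All 16 animals were ApcMin/+ mice, which carry a truncating mutation in 1 copy of the tumour suppressor gene Apc, so every group shared this allele and no wild-type colon serves as a reference. The 6 Control mice drank DSS (dextran sulphate sodium, a polymer that injures the colonic epithelium) at 1.5% weight by volume over 3 days and were given saline. The 6 5-ASA mice had the same DSS course with 5-aminosalicylic acid (5-ASA), a drug against ulcerative colitis, and the 4 Sham mice had plain water and no DSS. The labels disagree on the route: their protocol text has 5-ASA or saline placed into the colorectum over 28 days, and their sample descriptions have drinking water alone after DSS for Control. Colon judged by eye to be free of tumour was collected on day 28. Total RNA was labelled with Cy3 and hybridised to 1 Agilent array per mouse, and the labels give no age or sex.

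Diarrhea follows when the colon secretes more fluid than it absorbs. Surface colonocytes take up sodium through the epithelial sodium channel and sodium-proton exchangers, and chloride through the exchanger Slc26a3, while chloride leaves through Cftr and calcium-activated channels. In colitis, injured epithelium and resident cells release chemokines that draw neutrophils out of the blood, and neutrophils in turn leave S100 proteins and lipocalin in the tissue and the stool.

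Values are log2 signal intensity minus the 75th percentile of the same array, so a value of 1 means a signal double that percentile and a difference of 1 means a 2-fold ratio. Probes for 23242 genes passed the detection filter. Signal was well above background on 59.8 to 65.2% of probes for arrays in the first row of the slides and on 53.0 to 57.7% for arrays in the second row. Control 3 and 6 lay in the second row, with all 5-ASA arrays. Control 4 lay in the first row, with Control 1, 2 and 5 and all Sham arrays. The score and the array row are therefore tied in part. Many results are also given within slide 1 (Control 3 against 1 and 2) or slide 2 (Control 4 and 6 against 5). Some are given within the first row (Control 4 against 1, 2 and 5). Only the comparison within the first row is free of the tie, since Control 3 and 6 lay in the second row. Each of the 3 comparisons has at least 1 side with a single mouse. Colonic markers were well above background in all 6 Control mice: the chloride exchanger Slc26a3 lay between 5.35 and 5.83, and carbonic anhydrase Car1 between 5.69 and 6.60.

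No gene passed the test between higher and lower score. With limma and Benjamini-Hochberg adjustment over 23242 genes, 0 genes (0%) had an adjusted p under 0.05, and the smallest adjusted p was 0.345. An unadjusted p under 0.05 was found for 3272 genes (14.1%), of which 1247 (5.37%) were higher and 2025 (8.71%) lower in the mice with the higher score. The 3 and 3 mice did not overlap for 4940 genes (21.3%), with 2119 (9.12%) higher and 2821 (12.1%) lower. These shares are the measure for the counts of list members without overlap given below. The difference was above 0 for 10390 genes (44.7%), with a median of -0.03. An exact two-sided permutation test of 3 against 3 mice cannot give a p under 0.1. The values that follow are thus measurements in 6 mice, and no gene's difference between the score groups is called.

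**Figure D1:**
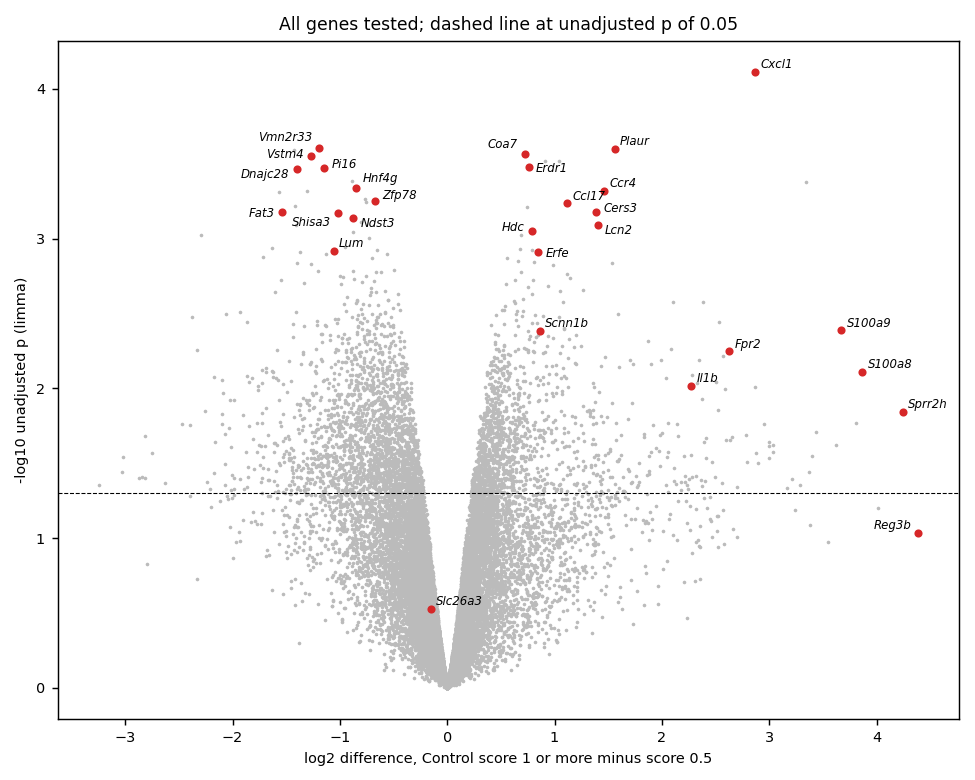
Each point is a gene, with the log2 difference between Control mice of score 1 or more and of score 0.5 on the horizontal axis and minus log10 of the unadjusted limma p on the vertical axis, where the dashed line marks 0.05. Cxcl1 stands highest at a difference of 2.87, the neutrophil genes S100a8 and S100a9 lie far to the right at 3.87 and 3.67, and Slc26a3 lies near the centre at -0.15.

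Chemokines and cytokines that draw neutrophils were higher in the 3 mice with the higher score. Cxcl1, a main neutrophil chemokine of the mouse, had the smallest unadjusted p of the 23242 genes (its probe lies at chr5:91321845-91321904, mm9). It was at -2.45, -1.52 and -1.66 in Control 3, 4 and 6, against -4.71, -4.43 and -5.08 in Control 1, 2 and 5. No lower-score mouse came near the higher-score mice. The difference was 2.87 (SE 0.30), a ratio of 7.29, and it was 2.12 within slide 1, 3.49 within slide 2 and 3.22 within the first row. Sham mice lay between -5.12 and -2.67 and 5-ASA mice between -4.96 and -3.05 with a median of -4.33, so all 3 higher-score mice stood above every other mouse of the series. Another background correction (normexp), here and below with an offset of 50 added to every intensity, gave a smaller difference of 1.64. The part of the offset in such smaller differences of dim probes was not tested.

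Ccl3, a chemokine of macrophages and neutrophils, was at -3.18, -3.34 and -4.16 in Control 3, 4 and 6 and at -6.10, -4.86 and -6.02 in Control 1, 2 and 5. Only 1 of the 3 lower-score arrays and none of the 4 Sham arrays had it well above background. Its difference was 2.10 (SE 0.42) and 0.78 after normexp. Il1b, the fever-inducing cytokine interleukin 1 beta, was at -1.82, 0.21 and 0.05 in the higher-score mice and at -3.31, -2.20 and -2.87 in the lower-score mice, without overlap. Its difference of 2.27 (SE 0.60) was 0.94 within slide 1 and 3.00 within slide 2. Cxcl5, an epithelial neutrophil chemokine, had a larger difference of 3.80 (SE 1.16), but Control 3 at -2.51 lay just below Control 2 at -2.44. Of 16 chemokine and cytokine genes on this list, 7 were measured, 6 of 7 were higher, and 4 did not overlap. The median difference was 2.10, and 0.78 after normexp. Cxcl2, a close relative of Cxcl1, was well above background only on 1 array, from a higher-score mouse, and was not tested.

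The transcription factor NF-kB is known to induce Cxcl1, so promoters were searched for its binding motif, and the windows are shown for the genes of the chemokine and NF-kB lists with a match. The motif searched was GGGA, any base, then TTTCC, on both strands, and is in capitals, with up to 25 bases on each side. The sequences are RefSeq promoters on GRCm38.p6, written 5′ to 3′ on the gene's strand. They cover chr5:90891149-90891208 for Cxcl1, chr12:55492648-55492701 (minus strand) for Nfkbia and chr19:46305680-46305739 for Nfkb2.
Cxcl1: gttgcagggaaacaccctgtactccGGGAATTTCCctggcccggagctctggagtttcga
Nfkbia: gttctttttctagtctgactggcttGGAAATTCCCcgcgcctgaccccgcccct
Nfkb2: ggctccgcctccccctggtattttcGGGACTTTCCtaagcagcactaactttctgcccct
The match starts 71 bases before the start of transcription in Cxcl1 and 225 before that of Nfkb2, and it lies on the opposite strand 29 bases before the start of Nfkbia. Over all 32851 promoters in the table, from 250 bases before to 50 after the start, 135 (0.411%) held the motif. Counted by gene, with any promoter of a gene sufficing, 126 of 27025 genes (0.466%) held it. It was found for 1 of 5 genes of the chemokine list and 2 of 12 of the NF-kB feedback list. For both the neutrophil and the antimicrobial lists it was found for 0 of 18 genes.

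NF-kB feedback genes, which the factor induces and which then restrain it, were higher for 13 of 15 measured members, with a median difference of 0.45 and 6 members without overlap. Nfkbia, the inhibitor that holds NF-kB in the cytoplasm, was at 5.03, 4.91 and 4.36 in Control 3, 4 and 6 and at 3.93, 4.06 and 4.35 in Control 1, 2 and 5. The groups did not overlap, but Control 6 lay barely above Control 5. Nfkb2, a subunit of the noncanonical pathway, overlapped between the groups, with a difference of 0.41 (SE 0.17). Socs3, which dampens cytokine signalling through Stat3, was at 2.86, 4.17 and 3.02 against 1.64, 2.41 and 1.38. Its difference was 1.54 (SE 0.43), and the 4 Sham mice lay between 1.29 and 1.58. The 5-ASA mice ran from 1.48 to 3.35, so the highest of them exceeded Control 3 and 6.

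Neutrophil genes were higher for 14 of 19 measured members, of 28 on the list, with a median difference of 1.27. S100a8 and S100a9 encode the subunits of calprotectin, the abundant cytosolic protein of neutrophils. The S100a8 probe, shown because this gene had the largest difference on the list, lies at chr3:90473778-90473837 (mm9).
S100a8 probe: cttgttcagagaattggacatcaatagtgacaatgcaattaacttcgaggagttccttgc
S100a8 was at -0.47, 1.44 and 0.05 in Control 3, 4 and 6. It was at -4.40, -1.46 and -4.72 in Control 1, 2 and 5. Control 2 was much nearer to the higher-score mice than its 2 companions, and the groups did not overlap. The difference was 3.87 (SE 0.98), a ratio of 14.6, and it was 2.47 within slide 1, 5.46 within slide 2 and 4.97 within the first row. S100a9 followed the same order of groups at -0.67, 2.24 and 1.61 against -3.04, -1.77 and -3.01, a difference of 3.67 (SE 0.81). The highest Sham mouse had S100a9 at 0.37, above Control 3, and the 5-ASA mice lay between -3.33 and -1.06.

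Lcn2, lipocalin 2, which binds bacterial siderophores and is made by neutrophils and by inflamed epithelium, was the member of the neutrophil list with the smallest unadjusted p. It was at 0.51, 0.55 and 1.12 in Control 3, 4 and 6 and at -0.72, -0.40 and -0.92 in Control 1, 2 and 5. The 4 Sham mice were within -0.53 to -0.41, close to the lower-score Control mice. The difference was 1.40 (SE 0.22), a ratio of 2.65, and it was 1.06, 1.75 and 1.23 within slide 1, slide 2 and the first row. Fpr2, a receptor for formyl peptides from bacteria, was at -3.20, -1.25 and -1.23 against -5.03, -3.84 and -4.70, a difference of 2.62 (SE 0.62), which was 1.54 after normexp. Il1r2, the decoy receptor of interleukin 1, differed by 2.57 (SE 0.62), Clec4d by 1.72 (SE 0.49) and Ly6g by 1.46 (SE 0.44), each without overlap.

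The neutrophil genes did not all share that direction. Mpo, the granule peroxidase, was lower by a difference of -0.67 (SE 0.26), and was well above background on only 1 of 3 higher-score arrays. Camp, the cathelicidin, was lower at -0.57 (SE 0.26), and Elane, neutrophil elastase, differed by -0.14 (SE 0.29). These proteins are stored in granules that are filled while the cell matures in the bone marrow. Csf3r, the receptor of granulocyte colony-stimulating factor, was at 7.12, 6.89 and 7.11 against 7.24, 7.13 and 7.27. It was thus slightly lower without overlap. This signal exceeded that of the colonocyte genes Slc26a3 and Car1 in every Control mouse. Whether the Csf3r probe reads another transcript was not tested. The granule genes Prtn3 and Ngp and the chemokine receptor Cxcr2 were well above background on 0 arrays. In whole tissue, a change in the number of cells of a type and a change in RNA per cell cannot be told apart. In Control 3 the level of the list (each member's log2 value centred on its average in all 16 arrays, then averaged over members) was 0.39, in Control 4 it was 1.28 and in Control 6 it was 0.92, against -0.71, 0.00 and -0.48 in Control 1, 2 and 5. The median difference was 0.72 within slide 1, 1.42 within slide 2, 1.85 within the first row and 0.86 without Control 4.

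**Figure D2:**
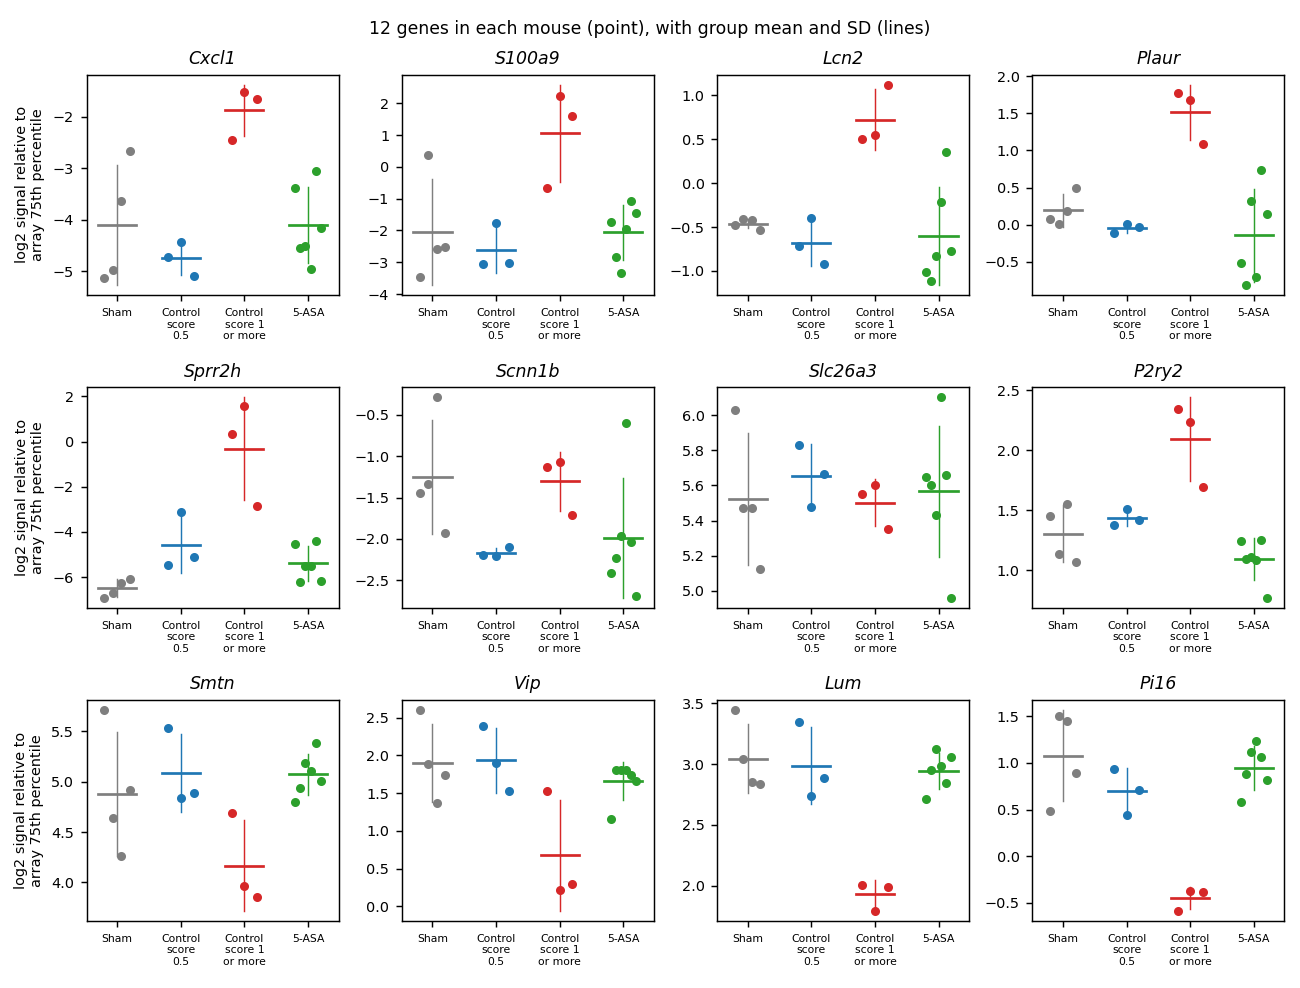
Log2 signal relative to the array's 75th percentile is plotted for 12 genes, with a point per mouse, a horizontal line at the group mean and a vertical line of 1 SD on each side, in Sham (n = 4), Control of score 0.5 (n = 3), Control of score 1 or more (n = 3) and 5-ASA (n = 6). Cxcl1 and Plaur in the higher-score mice lie above every other mouse, Lum and Pi16 lie below every other mouse, and Slc26a3 lies within the range of all groups.

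Plaur, the urokinase receptor of migrating leukocytes and wounded epithelium, had the second smallest p among the higher genes that were named. It was at 1.78, 1.68 and 1.08 in Control 3, 4 and 6 and at -0.11, 0.00 and -0.03 in Control 1, 2 and 5, and no Sham or 5-ASA mouse exceeded 0.73. The difference was 1.56 (SE 0.20), a ratio of 2.95, with 1.83 in slide 1, 1.41 in slide 2 and 1.72 in the first row. Its ligand Plau, urokinase, overlapped between the groups at a difference of 0.30 (SE 0.15). Timp1, an inhibitor of matrix metalloproteinases, was higher by 0.53 (SE 0.15) without overlap, and Mmp13 by 1.53 (SE 0.64) with overlap. Of 14 measured protease and plasminogen genes 11 were higher, with a median difference of 0.35, which was 0.02 within slide 1 and 0.21 without Control 6.

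Among the other genes with the smallest p, Ccr4 and its ligand Ccl17, which guide T helper and regulatory T cells, were both higher. Ccl17 was at -1.22, -1.18 and -0.98 against -2.495, -1.95 and -2.29, a difference of 1.12 (SE 0.17). Ccr4 differed by 1.46 (SE 0.21), but 1 of 3 lower-score arrays had it well above background, and the difference was 0.52 after normexp. Hdc, histidine decarboxylase, which makes histamine, was at -2.68, -2.57 and -2.32 against -3.38, -3.25 and -3.30. Its difference of 0.79 (SE 0.13) was 0.46 after normexp. Cers3, a ceramide synthase of barrier epithelia, was higher by 1.39 (SE 0.21), and by 0.58 after normexp, and Erfe, the iron hormone erythroferrone, by 0.85 (SE 0.15). Coa7, a mitochondrial assembly factor of cytochrome oxidase, was higher by 0.72 (SE 0.09) with its brighter probe, but by 0.03 with its second probe and by 0.38 with the mean of both. Erdr1 was higher by 0.76 (SE 0.10), within a range of 4.45 to 6.75 among the 4 Sham mice that spans all 6 Control mice.

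Epithelial antimicrobial and acute phase genes were higher for 19 of 22 measured members, with a median difference of 0.79. Most overlapped, and 4 of 22 were higher without overlap, against 9.12% of all genes. Lrg1, a secreted glycoprotein of the acute phase, was at 1.20, 2.498 and 2.41 in Control 3, 4 and 6 and at -0.55, 0.76 and -0.36 in Control 1, 2 and 5, a difference of 2.08 (SE 0.49). Sprr2h, a small proline-rich protein of barrier epithelia, was at 0.32, 1.56 and -2.84 against -5.47, -3.12 and -5.08. The difference of 4.24 (SE 1.24) came with a wide spread within both groups, with Control 6 just above Control 2. Sprr2h belongs to a family of near-identical genes, so signal from relatives on this probe was not separated.

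Duox2, the oxidase that makes hydrogen peroxide at the mucosal surface, was at 0.43, 0.11 and 0.57 against -0.29, 0.05 and -0.19, a difference of 0.51 (SE 0.16). Its probe, shown because the oxidase is the epithelial counterpart of the phagocyte enzyme, lies at chr2:122106173-122106232 (mm9).
Duox2 probe: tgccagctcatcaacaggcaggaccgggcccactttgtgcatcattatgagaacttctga
Reg3b, a secreted antibacterial lectin, had the largest difference of the list, 4.39 (SE 2.18), and the widest spread. It was at 3.88, 4.38 and 3.10 in Control 3, 4 and 6 and at -1.05, 4.15 and -4.91 in Control 1, 2 and 5. A lower-score mouse, Control 2, thus had as much Reg3b as the higher-score mice, and the 5-ASA mice ranged from -2.29 to 7.13. Saa3, an acute phase apolipoprotein, overlapped with a difference of 1.07 (SE 0.76), and it was -0.76 within slide 1. Ang4, an antimicrobial ribonuclease of secretory cells, differed by -0.31 (SE 1.71) and was highest in Control 6 at 6.28.

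Genes that move ions and water across colonocytes did not lie to one side. Of 36 measured members 14 were higher, with a median difference of -0.04, against 44.7% higher among all genes. In this list 3 of 36 were higher and 4 of 36 lower without overlap, close to the 9.12% and 12.1% among all genes. Scnn1b, the beta subunit of the epithelial sodium channel that aldosterone induces, was the member with the smallest p. It was at -1.13, -1.07 and -1.71 in Control 3, 4 and 6 and at -2.20, -2.20 and -2.10 in Control 1, 2 and 5. The difference was 0.86 (SE 0.19), and it was 1.07, 0.71 and 1.09 within slide 1, slide 2 and the first row. The Sham mice lay between -1.93 and -0.29, which takes in all 3 higher-score mice. Scnn1a, the alpha subunit, differed by 0.05 (SE 0.12), Nr3c2, the aldosterone receptor, by -0.05 (SE 0.15), and Sgk1, a kinase that keeps the channel at the surface, was lower at 3.77, 3.70 and 4.04 against 4.13, 4.18 and 4.16. Hsd11b2, which protects the aldosterone receptor from glucocorticoids, differed by 0.48 (SE 0.20) with overlap.

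Slc26a3, the chloride and bicarbonate exchanger whose loss causes congenital chloride diarrhea, was at 5.55, 5.60 and 5.35 in Control 3, 4 and 6 and at 5.83, 5.48 and 5.66 in Control 1, 2 and 5. The groups overlapped, and the difference was -0.15 (SE 0.14). Slc9a3, the sodium-proton exchanger of the brush border, was at 6.34, 6.08 and 5.21 against 5.26, 5.50 and 5.59, so that 2 higher-score mice were above and 1 below all lower-score mice. Its difference was 0.43 (SE 0.31), with 0.96 within slide 1 and 0.05 within slide 2. Slc9a2, a related exchanger, was lower by -0.24 (SE 0.10) without overlap. The water channel Aqp8 differed by 0.08 (SE 0.17), Aqp4 by -0.03 (SE 0.19) and Aqp11, an intracellular relative, by -0.36 (SE 0.12). Atp1b1, a subunit of the sodium pump that drives absorption, was higher by 0.12 (SE 0.09) without overlap.

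On the secretory side, Cftr, the cyclic AMP-gated chloride channel, was at 0.01, -1.08 and -0.46 against -0.10, 0.06 and 0.12. Control 4 and 6 were lower than every lower-score mouse, Control 3 lay among them, and the difference of -0.53 (SE 0.28) became 0.04 within slide 1. Slc12a2, the cotransporter that loads cells with chloride, differed by -0.02 (SE 0.15) and the chloride channel Ano1 by 0.09 (SE 0.15). Best2, the bicarbonate channel of goblet cells, was higher at 4.60, 4.68 and 4.77 against 3.30, 3.63 and 4.57, with Control 5 near the higher-score mice. Carbonic anhydrase Car1 differed by -0.31 (SE 0.24) and by 0.23 within the first row.

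**Figure D3:**
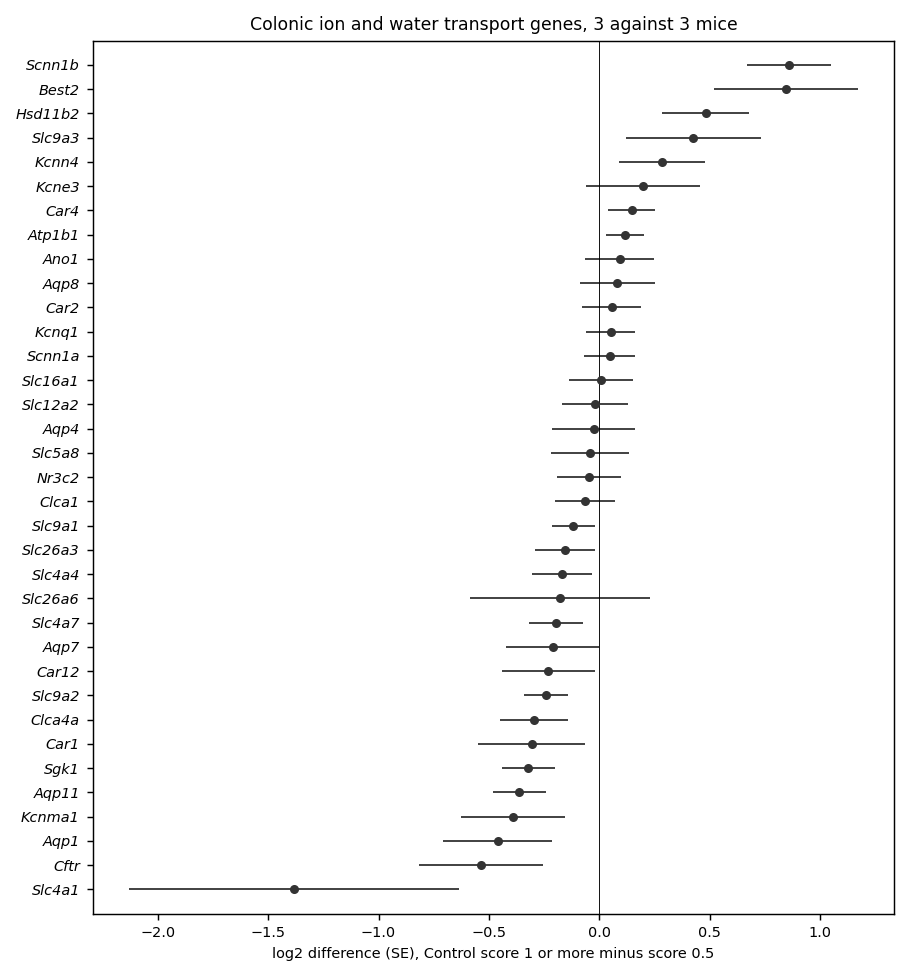
The log2 difference between Control mice of score 1 or more (n = 3) and of score 0.5 (n = 3) is shown as a point with a bar of 1 SE on each side for colonic ion and water transport genes, ordered by difference. Scnn1b at 0.86 and Best2 at 0.85 are the highest. Slc4a1, which is also on the erythroid list, is the lowest at -1.38, and most points lie within 0.5 of 0.

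Regulators of secretion were lower for 18 of 24 measured genes, with a median difference of -0.39. Without overlap 5 of 24 were lower, against 12.1% of all genes. The list median was -0.20 without Control 4. The level of the list was 0.03 in Control 3, within the 0.02 to 0.28 of the lower-score mice, and -0.37 and -0.10 in Control 4 and 6. P2ry2, the receptor through which luminal ATP triggers chloride secretion, was among the 6 that were higher. It was at 2.35, 2.24 and 1.70 in Control 3, 4 and 6 and at 1.38, 1.51 and 1.42 in Control 1, 2 and 5, a difference of 0.66 (SE 0.19). Vip, the neuropeptide that stimulates secretion and relaxes muscle, was at 1.52, 0.21 and 0.29 against 2.39, 1.90 and 1.53, so that Control 3 lay barely below Control 5. Sst, somatostatin, which inhibits secretion, was lower by -0.77 (SE 0.28) without overlap, and so were the receptors Vipr2 at -0.66 (SE 0.25) and Ptger4 at -0.36 (SE 0.11). Guca2a and Guca2b, the peptides guanylin and uroguanylin, differed by -0.34 (SE 0.15) and -0.08 (SE 0.13), and their receptor Gucy2c by 0.10 (SE 0.13), all with overlap. Of 11 measured enteroendocrine genes 9 were lower, with a median of -0.44, which was -0.20 without Control 1, -0.21 without Control 4 and -0.07 within slide 1. Pyy, an antisecretory peptide of the distal colon, was higher by 0.59 (SE 0.29), with overlap.

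Markers of surface colonocytes were lower for 15 of 19 measured genes, with a median difference of -0.20. Slc51b, a bile acid and steroid exporter subunit, was the exception with the smallest p, at 2.96, 3.03 and 2.38 against 1.62, 2.18 and 1.88, a difference of 0.90 (SE 0.23). Mep1a, a brush border protease, was at 4.78, 3.999 and 5.12 against 6.22, 5.64 and 5.59, and Fabp2, a fatty acid carrier, differed by -0.98 (SE 0.32). Krt20 and Vil1, general markers of differentiated epithelium, differed by 0.00 (SE 0.14) and 0.04 (SE 0.09).

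Goblet cell genes were higher for 7 of 15 measured members, with no member outside the other group's range. Muc2, the main mucin, was at 7.64, 7.09 and 7.93 against 7.94, 7.87 and 7.79, and Tff3, a peptide of mucosal repair, differed by 0.27 (SE 0.16). Tight junction genes were higher for 8 of 16, with 4 higher and 4 lower without overlap. Cldn2, the claudin that forms a cation and water pore, was at 2.58, 2.90 and 3.19 against 2.17, 2.26 and 2.56, a difference of 0.56 (SE 0.20). Ocln, occludin, was lower at 1.56, 1.32 and 1.45 against 1.87, 1.63 and 1.85. Mylk, whose long form contracts the junctional ring and whose short form is abundant in muscle, was lower by -1.04 (SE 0.32) together with the muscle genes below.

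Stem cell and Wnt target genes were higher for 9 of 19, with a median of -0.01. Lgr5, the stem cell receptor, differed by -0.05 (SE 0.24), Axin2, a feedback target of beta-catenin, by -0.11 (SE 0.21), and Apc by -0.20 (SE 0.15), with Control 3, 4 and 6 at -2.11, -2.24 and -2.29 and Control 1, 2 and 5 at -1.87, -1.87 and -2.30. Ly6a and Clu, which mark regenerating epithelium and are also made by other cells, were higher without overlap by 1.18 (SE 0.40) and 1.60 (SE 0.56). The growth factors Ereg and Areg, ligands of the epidermal growth factor receptor, were also higher. Ereg was at -0.01, 0.25 and 0.47 against -0.69, -0.43 and -0.53, a difference of 0.79 (SE 0.16), and Areg differed by 1.12 (SE 0.27). Of 11 measured ligands and receptors of this family 7 were higher.

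Proliferation genes were higher for 27 of 28 measured members, with a median difference of 0.47 and 10 members without overlap. Mki67, the antigen used to count cycling cells, was at 4.57, 4.66 and 4.31 in Control 3, 4 and 6 and at 3.84, 4.08 and 4.18 in Control 1, 2 and 5. Control 6 lay only a little above Control 5. Top2a, the topoisomerase of dividing cells, differed by 0.92 (SE 0.26). The 5-ASA mice covered the whole range for Mki67, 3.68 to 5.26, and the Sham mice lay between 3.19 and 4.01. Hypoxia and glycolysis genes were higher for 13 of 13, with a median of 0.46, which was 0.29 without Control 3, and 5 without overlap. Egln3, an oxygen sensor induced by low oxygen, was at 2.82, 3.12 and 2.03 against 1.25, 1.64 and 1.48, a difference of 1.20 (SE 0.30). Control 6 was the lowest of the higher-score mice for the proliferation list at -0.06 and for the hypoxia list at 0.08, which lay within the range of the lower-score mice.

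Immediate early genes included Junb, a subunit of the AP-1 factor, at -1.29, -0.82 and -1.31 against -2.19, -2.11 and -1.79, a difference of 0.89 (SE 0.19). The heat shock genes Hspa1a and Hsph1, which encode chaperones, were lower without overlap by -1.62 (SE 0.53) and -1.70 (SE 0.56). Control 6 at 3.43 lay just under Control 5 at 3.60 for Hsph1, and Control 3 was the lowest at 1.34. Ciart, a repressor of the circadian clock, was higher by 1.68 (SE 0.50), and by 1.05 after normexp, and of 15 clock genes measured 7 were higher. The hour of collection is not in the labels.

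Smooth muscle genes were lower for 19 of 19 measured members, with a median difference of -0.94, and 7 were lower without overlap. Smtn, smoothelin of contractile muscle, was at 4.68, 3.97 and 3.85 in Control 3, 4 and 6 and at 5.53, 4.84 and 4.88 in Control 1, 2 and 5. The groups did not overlap, and Control 3 lay nearer to the lower-score mice than Control 4 and 6 did. Des, the muscle intermediate filament desmin, differed by -1.15 (SE 0.40), Hspb6, a small heat shock protein of muscle, by -1.02 (SE 0.31) and Myh11, the smooth muscle myosin heavy chain, by -0.94 (SE 0.38). Within slide 1 the median was -0.43 and within slide 2 it was -0.97. The level of the list was -0.10 in Control 3, -0.88 in Control 4 and -1.10 in Control 6, against 0.72, 0.07 and -0.08 in Control 1, 2 and 5.

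Enteric neuron and glia genes were lower for 19 of 19 measured members, and their median difference was -1.07. S100b, a glial calcium-binding protein, was at -0.53, -1.80 and -1.35 against 0.31, -0.22 and 0.01, a difference of -1.26 (SE 0.34). Snap25, a synaptic protein, differed by -0.02 (SE 0.15), with overlap. The level of the list was 0.11 in Control 3, among the lower-score mice at 0.66, 0.21 and 0.01, and it was -1.14 in Control 4 and -0.89 in Control 6. Vip, described among the secretion regulators, is a member of this list. Etv1, a factor of the interstitial cells of Cajal that pace the muscle, was lower without overlap by -0.84 (SE 0.28), and Kit, their defining receptor, overlapped at -0.47 (SE 0.32).

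Adipocyte genes were lower for 9 of 9 with a median of -1.83. The list level was 0.71 in Control 3, -1.08 in Control 4 and -1.15 in Control 6, against 0.75 to 1.11 in the lower-score mice. The median was -0.19 within slide 1 and -3.03 within slide 2. The Sham mice ranged from -2.75 to 1.59. Muscle, nerve and fat genes were thus all low in Control 4 and 6 and near the lower-score mice in Control 3. How much muscle and fat each piece of colon held is not in the labels, and the part that this played in the differences was not tested.

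**Figure D4:**
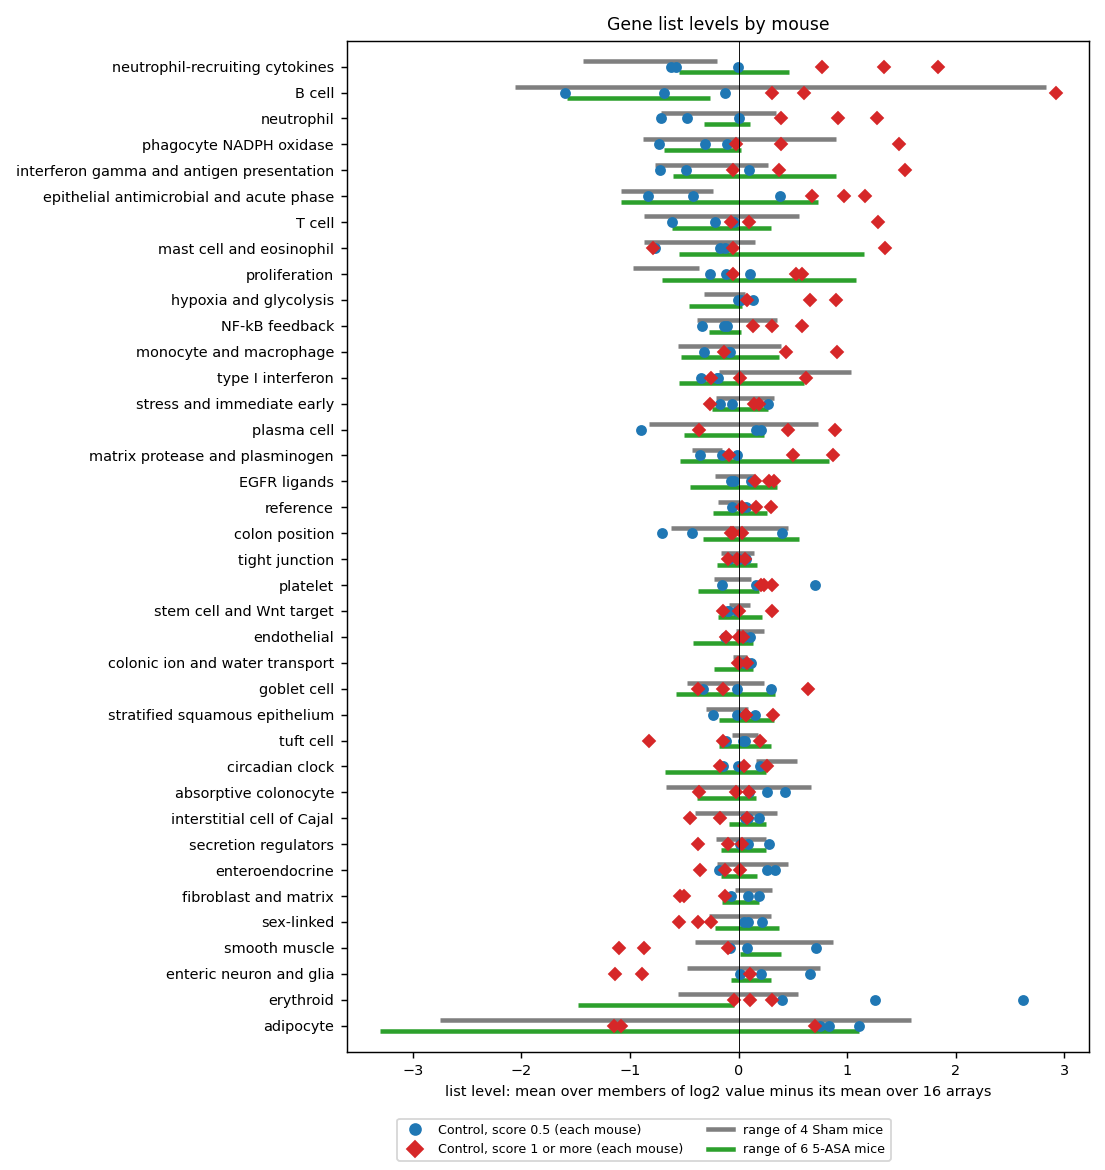
The level of each gene list, with each gene centred on its average in all 16 arrays, is shown for each Control mouse of score 0.5 (circles) and of score 1 or more (diamonds), with bars for the range of the 4 Sham and 6 5-ASA mice, and lists are ordered by the median difference. For muscle, nerve and fat genes 2 diamonds lie far to the left and the third, Control 3, lies beside the circles, while for the neutrophil and chemokine lists all 3 diamonds lie to the right of the circles.

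Fibroblast and matrix genes were lower for 21 of 23 measured members, with a median difference of -0.45 and 8 members without overlap, and here Control 3 was low as well. Lum, lumican, a proteoglycan that spaces collagen fibrils, was at 2.01, 1.79 and 1.99 in Control 3, 4 and 6 and at 3.34, 2.74 and 2.88 in Control 1, 2 and 5. The difference was -1.06 (SE 0.18), and it was -1.03, -0.99 and -1.20 within slide 1, slide 2 and the first row. Pi16, a protease inhibitor of certain fibroblasts, was at -0.59, -0.37 and -0.39 against 0.93, 0.44 and 0.71, a difference of -1.15 (SE 0.15). For Lum and Pi16 every higher-score mouse lay below all 13 other mice of the series. Postn, periostin, differed by -0.67 (SE 0.14), and Grem1, an antagonist of bone morphogenetic proteins, by -0.58 (SE 0.18), both without overlap. The collagens Col1a1 and Col3a1 overlapped: Control 3 had the lowest values, 2.62 and 3.35, and Control 6 at 3.97 and 4.84 lay among the lower-score mice. Pdgfra and Pdgfrb, receptors that mark fibroblasts and pericytes, differed by -0.12 (SE 0.13) and -0.19 (SE 0.17).

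Other genes with the smallest p among those lower in the higher-score mice included Hnf4g, a nuclear receptor of differentiated gut epithelium, at -2.22, -2.42 and -2.16 against -1.29, -1.42 and -1.54. Its difference was -0.85 (SE 0.12), and it was -0.87 within slide 1 and -0.75 within slide 2. Ndst3, a heparan sulphate sulphotransferase, differed by -0.88 (SE 0.14) and the zinc finger gene Zfp78 by -0.68 (SE 0.10). Dnajc28, a cochaperone, differed by -1.40 (SE 0.19), Shisa3 by -1.02 (SE 0.16), Vstm4 by -1.27 (SE 0.17) and Vmn2r33 by -1.19 (SE 0.15), but each was well above background on only 1 of 3 higher-score arrays. After normexp these differences shrank to -0.65, -0.45, -0.31 and -0.32, and those of Ndst3 and Zfp78 to -0.53 and -0.43. Vmn2r33 belongs to a family of similar pheromone receptors, whose members this probe may share. Fat3, a cadherin, was well above background on 0 of 3 higher-score arrays and on 3 of 3 lower-score arrays, and no fold is given.

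B cell genes were higher for 16 of 16 measured members, with a median difference of 2.09, which was 1.16 without Control 4, and 13 without overlap. Cxcr5, the receptor that guides B cells into follicles, was at -1.68, 1.39 and -2.12 in Control 3, 4 and 6 and at -4.95, -2.94 and -3.64 in Control 1, 2 and 5. Control 4 was far above the other 2 higher-score mice. The difference was 3.04 (SE 1.03), and Fcmr, the receptor for IgM, differed by 3.62 (SE 1.20). Sham 1 had Cxcr5 at -5.19, but Sham 2, 3 and 4 were at 1.01, -0.12 and 0.21, above Control 3 and 6 and below Control 4. Against Sham, the median difference of the list was 0.10 in the higher-score mice. In the lower-score mice it was -2.12, with 16 of 16 members below Sham. Against 5-ASA these medians were 2.15 and 0.16. Pax5 and Cd22, other B cell genes, differed by 0.14 (SE 0.25) and 0.04 (SE 0.20), and the plasma cell gene Jchain by 0.23 (SE 0.41). Whether a lymphoid follicle lay in the piece of colon is not in the labels, and its part in these values was not tested.

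T cell genes were higher for 15 of 18, with a median of 0.73, which was 0.19 without Control 4. Cd5, a receptor of T cells and some B cells, was at -1.46, 0.24 and -1.19 against -2.52, -1.80 and -2.23. Genes of the interferon gamma response and antigen presentation were higher for 18 of 20, with a median of 0.89, which was 0.50 without Control 4, and the level was 1.54 in Control 4, 0.37 in Control 6 and -0.05 in Control 3, against -0.72, 0.10 and -0.48 in Control 1, 2 and 5. Ubd, a ubiquitin-like protein induced by interferon gamma, differed by 2.498 (SE 0.94). Type I interferon genes were higher for 17 of 21, with 7 without overlap and a median of 0.37, which was -0.03 within slide 1 and 0.21 without Control 6. Oas3, an antiviral RNA sensor, was at -2.74, -2.40 and -2.33 against -3.39, -3.33 and -4.15, a difference of 1.13 (SE 0.26) that was 0.64 after normexp, and the Sham mice reached -0.56.

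Macrophage genes were higher for 16 of 16, with a median of 0.44, and none separated the groups. The median was 0.27 without Control 4, 0.74 without Control 3 and 0.05 within slide 1. Cd14, the lipopolysaccharide coreceptor, was at 2.62, 3.21 and 3.18 against 1.88, 2.62 and 2.49, and Adgre1, a surface receptor of mature macrophages, differed by 0.28 (SE 0.28). All 6 subunits of the phagocyte NADPH oxidase, which neutrophils and macrophages share, were higher, with a median of 1.04, and 3 did not overlap. That median was 0.56 without Control 4 and 0.38 within slide 1. Mast cell and eosinophil genes were higher for 8 of 10, with a median of 0.69 that was -0.24 without Control 6. Ear1, a ribonuclease of eosinophils, differed by 1.02 (SE 0.27), and by 0.57 after normexp, and Mcpt2, a mucosal mast cell protease, reached 0.03 in Control 6 and at most -2.14 in the other 5 Control mice.

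Erythroid genes, active in developing red blood cells, were lower for 7 of 7, with a median of -1.50, which was -0.68 without Control 1. The level was 2.62 in Control 1 and 1.26 in Control 5, and between -0.04 and 0.40 in the other 4 Control mice, so that 2 of the 3 lower-score mice stood above all others. Alas2, the first enzyme of heme synthesis in red cells, was at -0.80, -0.74 and -0.71 against 2.88, -0.25 and 1.12. Endothelial genes were higher for 6 of 15 and platelet genes for 4 of 8, with medians of -0.03 and 0.00. Among 12 genes that vary along the length of the colon 8 were higher, with a median of 0.04, and Hoxb13, a marker of the distal end, overlapped at 0.42 (SE 0.28). Among 13 reference genes, used to normalise other assays, the median difference was 0.09.

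**Figure D5:**
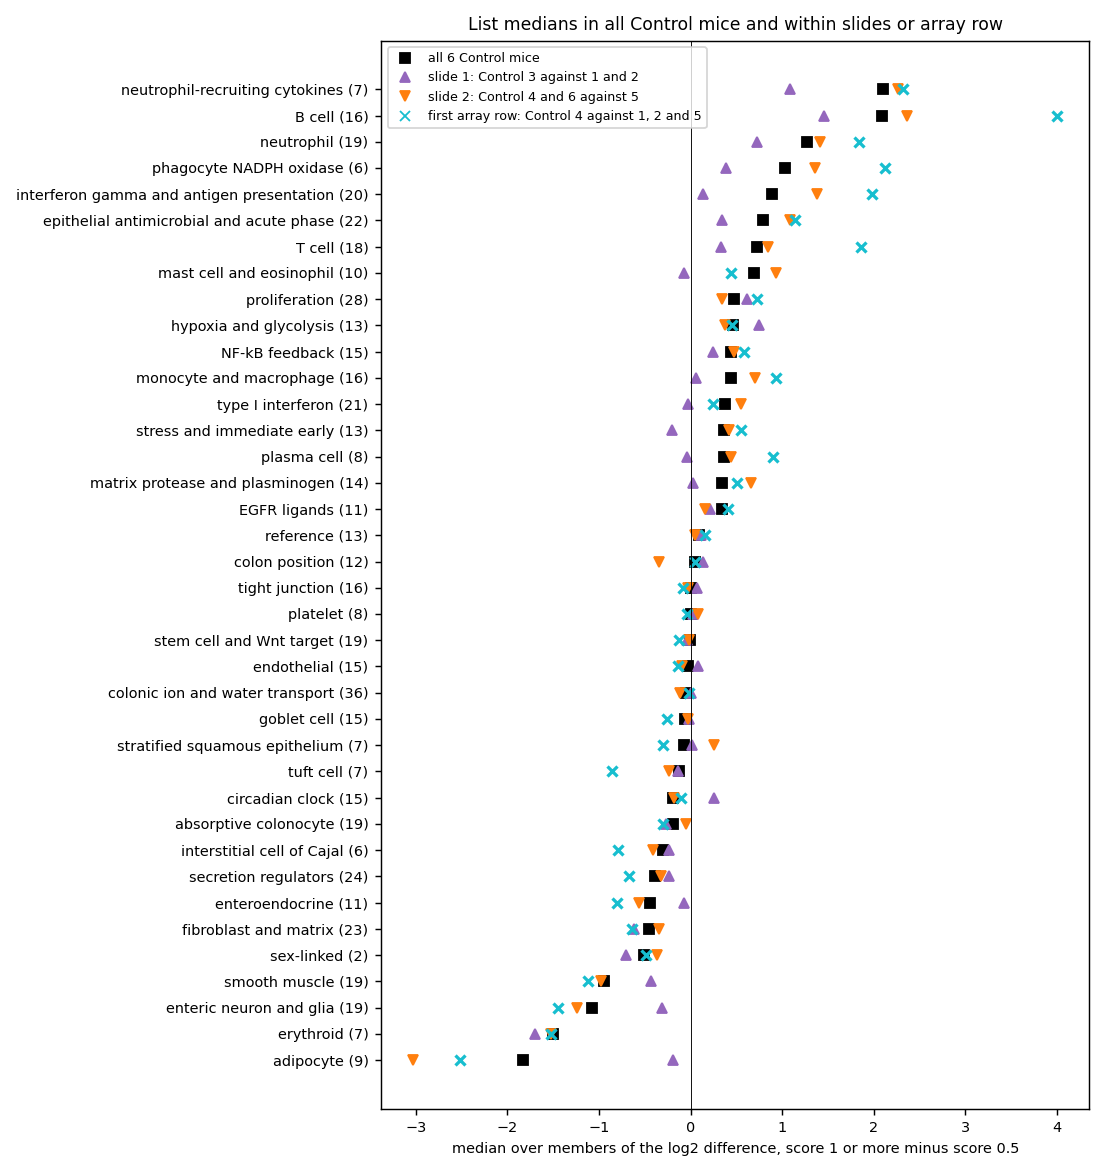
For each gene list (measured members in brackets) the median over members of the log2 difference, score 1 or more minus score 0.5, is shown for all 6 Control mice (squares), within slide 1, within slide 2 and within the first array row. The medians of the neutrophil, chemokine, B cell, proliferation, smooth muscle and fibroblast lists keep their sign in all 4, and the adipocyte median moves from -0.19 within slide 1 to -3.03 within slide 2.

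The same 2 sets of Control mice were then set beside the Sham and 5-ASA mice, in 1 limma model of all 16 arrays with Benjamini-Hochberg adjustment. The 3 higher-score mice differed from Sham in 5 genes (0.0215%), and from 5-ASA in 7 genes (0.0301%). The 3 lower-score mice differed from Sham in 0 genes (0%), where 825 (3.55%) had an unadjusted p under 0.05 and the smallest adjusted p was 0.966. They differed from 5-ASA in 0 genes (0%), where 570 (2.45%) had an unadjusted p under 0.05 and the smallest adjusted p was 0.638. An unadjusted p under 0.05 was found for 4582 genes (19.7%) between higher-score and Sham mice and for 3619 (15.6%) between higher-score and 5-ASA mice. The comparisons share the Sham, the 5-ASA or the Control mice, so they are not independent of each other. All 5-ASA arrays were in the second row of the slides and all Sham arrays in the first row, where only Control 4 of the 3 higher-score mice lay.

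Sprr2h rose in the higher-score mice against both groups (adjusted p 0.0437 and 0.0435 by limma). It was well above background on 0 of 4 Sham and 0 of 6 5-ASA arrays. The mean log2 signal of the higher-score mice gave at least 33.0-fold that of Sham and at least 18.8-fold that of 5-ASA. These bounds do not hold for each mouse, since Control 6 was at -2.84 and Control 3 and 4 at 0.32 and 1.56. Lower-score Control 2 was at -3.12. Lum and Pi16 fell against both groups, Lum by 1.11 (SE 0.17) and Pi16 by 1.53 (SE 0.22) on the log2 scale against Sham. Lum was between 2.84 and 3.44 in Sham and between 2.71 and 3.12 in 5-ASA, and Pi16 between 0.48 and 1.50 and between 0.59 and 1.23. The other 2 genes called against Sham rose: Coa7 by 0.83 (SE 0.12) with its brighter probe, where the second probe showed almost no difference between the Control mice, and Haus7, a subunit of the spindle complex augmin, by 1.01 (SE 0.15), from -0.60, -0.19 and -0.31 in Control 3, 4 and 6 against -1.42 to -1.33 in Sham. Lower-score mice had Haus7 at -1.16, -1.06 and -1.30.

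Against 5-ASA, P2ry2, Sertad1 and Gdap10 rose by 1.00 (SE 0.15), 0.61 (SE 0.09) and 0.63 (SE 0.09). P2ry2 lay between 0.77 and 1.25 in the 5-ASA mice, below all 6 Control mice. Sertad1, a regulator of cyclin-dependent kinase 4, was at 3.16, 3.30 and 2.97 in the higher-score mice and at 2.37 to 2.63 in 5-ASA. Tmem200a fell by 1.13 (SE 0.17), from -1.68 to -2.25 in 5-ASA to -2.76, -3.40 and -3.13. All of these calls were lost with quantile normalisation, with only the compared groups in the fit, or with the replicate number as a block, where the smallest adjusted p lay between 0.0554 and 0.162.

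For Cxcl1, S100a8 and Lcn2, the lower-score mice lay nearer to Sham than the higher-score mice did. Cxcl1 differed from Sham by 2.23 in the higher-score mice and by -0.64 in the lower-score mice, S100a8 by 3.68 and -0.19, and Lcn2 by 1.18 and -0.22. Reg3b differed from Sham by 6.49 (SE 2.31) and 2.10 (SE 2.31). Of the lower-score mice only Control 2, at 4.15, lay above the Sham range of -6.67 to 0.35. Slc26a3 differed from Sham by -0.02 and 0.13. None of these differences passed the adjusted threshold in the model of 16 arrays. Not every list or gene had the lower-score mice nearer to Sham. The B cell medians against Sham were 0.10 in the higher-score mice and -2.12 in the lower-score mice. Those of the erythroid list were 0.20 and 1.74, and Scnn1b differed from Sham by -0.05 and -0.915. The proliferation medians were above Sham in both, at 0.998 and 0.477.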

How the data were processed

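Total colon RNA of 16 mice was measured on 1-colour Agilent arrays, 1 per mouse. Intensities are the background-subtracted processed signals deposited by the authors, made with Agilent Feature Extraction 10.10.1.1, per the file headers, which also give flags for signal well above background. The authors' deposited value table holds log2 values whose scale and centring on the Sham median were inferred by comparison with the scanner values (r 0.992 to 0.998), since neither is stated; its column medians ran from -0.19 to 0.22, and it served as an alternative.

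Each array's log2 intensity was taken minus its 75th percentile. Probes had to exceed background clearly, by the flag, on 4 or more of the 16 arrays, the outer 12 spot rows at both ends were left out, and the brightest probe stood for a gene. Probes were named by RefSeq accession where matched (27731 of 55681) and otherwise as in the files. Tests were those of limma 3.58.1 (R 4.3.3), with Benjamini-Hochberg adjustment. The fit of higher against lower score used the 6 Control arrays. The comparisons with Sham and 5-ASA used all 16. The script was tested on simulated data.

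Named genes were the 10 higher and 10 lower genes of smallest p without overlap, the 3 members of smallest p of 7 main lists and 1 of each other list, and a fixed set of inflammation and transport genes. Further list members were given as examples after their values were seen. Certain named genes are not reported here. The mice compared and the lists were chosen with earlier results of these data known. Alternatives covered background, scaling, filters, probes, slide, array row, coding of the score, and each mouse left out. The labels call the samples biological replicates, and the number of arrays limits the precision.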

Additional observations from a re-analysis of the deposited data

Results flagged for a closer look

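Among 117 tests for a single Control mouse standing apart from the other 5 (Dixon's ratio above 0.625), 4 were positive, and chance gives about 1 in 20. Control 4 had the highest T cell level, 1.28, where the others ran from -0.61 to 0.09. It also had the lowest tuft cell level, -0.82 (-0.821), where the others ran from -0.15 to 0.19. Control 6 had the highest mast cell and eosinophil level, 1.35, where the others ran from -0.79 to -0.05. It also had the highest level of stem cell and Wnt target genes, 0.305, where the others ran from -0.14 to 0.00. Both mice belong to the higher-score group.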

How the results depend on the processing

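Of the list medians, 801 values under an alternative stayed within the spread between mice and 79 moved. For named genes 1675 values kept direction and call, 7 reversed, and 1 became called: Dnajc28, with all 16 arrays in 4 groups. The count of called genes for higher against lower score, 0 as reported, was 1 with all 16 arrays, 6 with the array row as a covariate and 3 within the first array row. Both Control arrays in the second row came from higher-score mice. With the row covariate, the score difference therefore rested on Control 4 against Control 1, 2 and 5. That is the same comparison as within the first array row. These settings are thus not separate adjustments, and their gene counts, adjusted or unadjusted, rest on a single higher-score mouse. No gene is called from them. Leaving out each mouse gave a count of 0 to 1 called genes. The number of genes at an unadjusted p under 0.05, higher minus lower score, was 5028 with the row covariate, 6176 within the first row, 1498 with the score as a number, and 1215 to 4864 with each mouse left out. It was 1215 without Control 1 and 1758 without Control 4. The calls of higher-score mice against Sham and against 5-ASA, 5 and 7, were both 0 with quantile normalisation, 0 with only the 2 groups compared, and 0 with the replicate block. The labels do not say that a number pairs mice. No paired analysis was possible because the higher-score and lower-score mice share no replicate number.

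The neutrophil median was 1.845 with the row covariate and within the first row, 0.72 within slide 1, and 0.86 to 1.51 with each mouse left out. The chemokine median was 0.78 after normexp and 1.09 within slide 1. The ion and water transport median was 0.000383 within slide 1 and -0.12 within slide 2. Within slide 1 the smooth muscle median was -0.43 and the enteric median -0.31. The B cell median was 4.005 with the row covariate and within the first row. The adipocyte median was -1.05 with the score as a number, -0.19 within slide 1 and -3.03 within slide 2. Reversed genes were Saa3 (-0.76 within slide 1), Aqp8 (-0.032 within slide 2, and -0.047 to 0.23 with each mouse left out), Car1 (0.23 with the row covariate and within the first row), Cftr (0.035 within slide 1) and Apc (0.027 within slide 2). The cause was not tested for any of these. Signal near background limits the fold of genes such as Ccl3 and Ccr4, well above background on 1 of 3 lower-score arrays.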

Other observations

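Outside the lists above, genes of sterol synthesis, the targets of the factor SREBP that cells induce when they need cholesterol, were higher in the higher-score mice. The list was chosen after the values were seen, so no test is given. All 16 of 16 measured members were higher, 15 without overlap, with a median difference of 0.68, which was 1.04 within slide 1, 0.46 within slide 2 and 0.86 within the first array row. The list level was 0.65, 0.61 and 0.32 in Control 3, 4 and 6 and -0.42, -0.18 and 0.01 in Control 1, 2 and 5, and the Sham mice ran from -0.19 to 0.08. Ribosome biogenesis genes, chosen the same way, were higher for 14 of 17, 10 of them without overlap, with a median of 0.40. Among all genes tested, 9.12% were higher without overlap.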
